A study of Mus musculus with 16 samples.

Results

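Mice with transverse aortic constriction (TAC), in which a suture around the aortic arch overloads the left ventricle with pressure, were given either THZ1 or its vehicle, and the ventricles of these groups, TAC-THZ1 and TAC-Veh, were compared. The 8 libraries of the comparison, 4 per group, were picked by their labels from the 16 libraries of the series. Genes were compared where 4 or more of the 16 libraries held a normalized count of 10 or higher, which gave 13331 of the 22372 genes listed. The other 8 libraries, 4 of Sham-Veh and 4 of Sham-THZ1, came from mice operated on without the constriction. All mice were of the C57BL/6J strain, male by the methods of the study, and aged 10 to 12 weeks when the experiment began. By the labels, THZ1 mice received 10 mg/kg into the peritoneum, 2 injections daily, over postoperative days 1 to 60. By the methods, the same daily amount went into daily injections, and the vehicle was DMSO and dextrose in water. The drug was given to the whole animal, so every cell type of the heart was exposed to it. The labels number the libraries of a group and do not state the animal, so p-values measure the spread between libraries. That spread was pooled over all 16 libraries, sham included.

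THZ1 is a small molecule that binds covalently to cyclin-dependent kinase 7 (CDK7), a subunit of the general transcription factor TFIIH, and also inhibits CDK12 and CDK13. These kinases phosphorylate the tail of RNA polymerase II and help it to start and elongate transcripts, and CDK7 also activates the kinases that drive the cell cycle. Under pressure overload, cardiomyocytes enlarge and switch on stress genes such as the natriuretic peptides, fibroblasts become activated and lay down collagen, and genes of fatty acid oxidation, repolarising potassium currents and calcium cycling tend to fall.

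The 16 libraries held 21.4 to 35.8 M reads in the genes listed, and the 8 TAC libraries 24.2 to 32.7 M. Genes encoded by the mitochondrial genome took 33.2% to 42.3% of reads in TAC-Veh and 36.7% to 44.7% in TAC-THZ1. Cardiomyocyte markers were abundant in all 8 TAC libraries. Of 7 atrial markers, Bmp10 was at 0 in each of these libraries, but others were expressed. The atrial sums were 772 to 1528 normalized counts in TAC-Veh and 564 to 651 in TAC-THZ1. Several libraries stood apart within their group. TAC-Veh replicates 1 and 2 had the highest summed levels of 10 activated fibroblast markers, at 78681 and 106483 normalized counts against 32862 and 40693 in replicates 3 and 4. TAC-THZ1 replicates 1 and 3 had the highest sums of 11 neutrophil markers, at 9588 and 4165 against 1174 and 319 in replicates 2 and 4. Where leaving out either pair ended a call or moved a count of list members by over 1.5 times, the value without it is given below.

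In limma, 1899 of the 13331 genes were lower in TAC-THZ1 than in TAC-Veh at an adjusted p under 0.05 (14.2% of genes tested), and 2019 were higher (15.1%). Genes past this threshold are called lower or higher here. With a change of at least 0.89 on the log2 scale as well, 483 were lower (3.62%) and 246 were higher (1.85%). The study took that fold threshold from Nppb, measured in these same libraries. A fit of the 8 TAC libraries alone gave 816 lower and 583 higher genes at an adjusted p under 0.05. TAC libraries varied more than sham libraries. The spread pooled over all 16 can therefore be too small for TAC, and the p-values too low. For 1399 genes (10.5%) all 4 TAC-THZ1 values lay below all 4 TAC-Veh values, and for 1271 (9.53%) all lay above. The median log2 fold change over all genes tested was 0.01. Log2 fold changes are differences of log2(normalized count + 1), a scale that makes changes of genes with few reads look smaller. In bulk tissue, fewer cells of a type and less RNA per cell cannot be told apart. The gene with the count closest above the filter was Kcnc4, whose fourth-highest value was 10.01, and the closest below was Nwd1 at 9.91.

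The genes with low counts in TAC-THZ1 were above all those of the extracellular matrix, and the genes with high counts were those of mitochondria, fatty acid oxidation and potassium channels. Of 22 collagen genes tested, 20 were lower, and of 24 matricellular proteins and proteoglycans, 22 were lower. Of 77 nuclear genes of the respiratory chain, 67 were higher, and of 18 potassium channel genes, 14 were higher. These shares, and those of every list below, are read against the 14.2% lower and 15.1% higher among all genes. A share near these does not set a list apart.

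**Figure D1:**
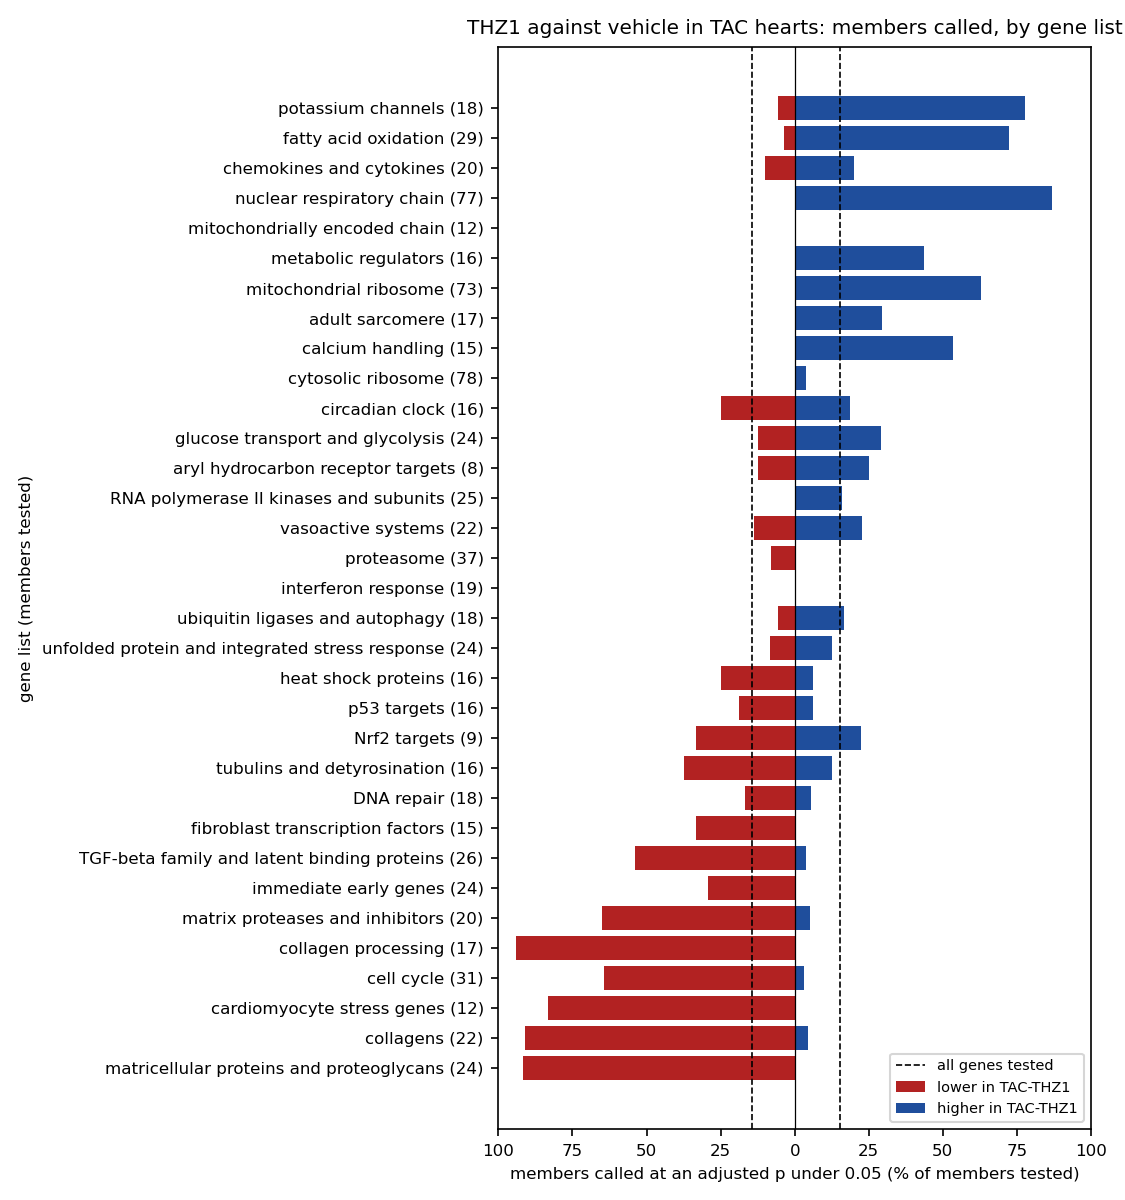
Percentage of the tested members of each gene list called lower (left) or higher (right) in TAC-THZ1 than in TAC-Veh at an adjusted p under 0.05, with dashed lines at the shares over all 13331 genes, 14.2% lower and 15.1% higher. Collagen, matricellular and collagen processing lists lie far past the line for lower genes, and the nuclear respiratory chain, potassium channel and fatty acid oxidation lists far past the line for higher genes.

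Extracellular matrix genes showed the greatest falls. Postn encodes periostin, a matricellular protein that activated fibroblasts secrete. Its normalized counts in TAC-Veh replicates 1 to 4 were 46489, 65868, 20159 and 20098, and in TAC-THZ1 they were 3455, 2029, 6054 and 4704. The lowest TAC-Veh library was thus above the highest TAC-THZ1 library, and replicates 1 and 2 of TAC-Veh were far above replicates 3 and 4. The mean was 9.40-fold lower with THZ1, and the difference was -3.15 on the log2 scale (SE 0.34, adjusted p = 3.97e-05). Without TAC-Veh replicates 1 and 2 it was -2.42 (adjusted p = 1.08e-04). Sham-Veh hearts held 1348 ± 256 (SD, n = 4), so the TAC-THZ1 level of 4061 ± 1721 lay between the sham and the TAC-Veh levels. The gene lies at chr3:54165031-54194961 of the mouse build NCBIM37 (mm9). One of its listed promoters in RefSeq, on build GRCm38.p6 at chr3:54360857-54361106 on the plus strand, is shown because the falls in matrix genes are described first with Postn. Capitals mark the only TATAAA, the core of the TATA box, 26 bases before the start.
Postn: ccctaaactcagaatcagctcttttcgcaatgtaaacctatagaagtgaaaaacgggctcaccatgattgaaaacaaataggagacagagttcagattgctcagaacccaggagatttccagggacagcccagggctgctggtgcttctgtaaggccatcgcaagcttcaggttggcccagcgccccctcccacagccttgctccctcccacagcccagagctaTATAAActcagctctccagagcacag

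Collagens fell as a family, with a median log2 fold change of -1.39 over the 22 tested against 0.01 over all genes. Among them were the fibrillar collagens Col1a1 and Col3a1, the main collagens of scar tissue. Col3a1 counts were 16234, 31689, 10475 and 15083 in TAC-Veh and 3489, 3404, 5174 and 4964 in TAC-THZ1. Its mean was 4.31-fold lower with THZ1 (log2 fold change -2.01, SE 0.24, adjusted p = 5.48e-05). Col1a1 counts were 2604, 5596, 1914 and 4268 in TAC-Veh and 893, 866, 1199 and 973 in TAC-THZ1 (log2 fold change -1.76, SE 0.23, adjusted p = 1.13e-04). Neither gene overlapped between the groups. Both TAC-THZ1 means were also below the sham means, which for Col1a1 were 1538 ± 218 in Sham-Veh and 1778 ± 129 in Sham-THZ1 (SD, n = 4). For Col1a1 this difference between TAC-THZ1 and Sham-THZ1 passed the test, at a log2 fold change of -0.86 (adjusted p = 0.0149), and for Col3a1 it did not (-0.42, adjusted p = 0.201).

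Larger falls were found among collagens that associate with fibrils or form networks. Col12a1, a fibril-associated collagen at chr9:79446798-79566638, had counts of 1449.6, 2069, 386 and 627 in TAC-Veh and of 64.4, 36.9, 131 and 73.2 in TAC-THZ1. The change of -3.72 on the log2 scale (SE 0.41, adjusted p = 4.25e-05) was the largest fall among genes with a mean of at least 100 counts and no overlap of the groups. Col8a1, a network-forming collagen of vessels and remodelling tissue, went from 7516, 13086, 4790.0 and 6137 to 1104, 1077, 1413 and 1721 (log2 fold change -2.49, SE 0.22, adjusted p = 1.33e-05). Col8a2, its partner chain, fell by 3.17 on the log2 scale (SE 0.48, adjusted p = 2.79e-04). Col4a3, a chain of basement membrane collagen, had 513, 656, 363 and 591 in TAC-Veh and 104, 116, 80.6 and 181 in TAC-THZ1 (log2 fold change -2.16, SE 0.21, adjusted p = 2.55e-05). In Sham-Veh, Col4a3 stood at 175 ± 28.0 (SD, n = 4), and the TAC-THZ1 libraries lay around or below it. Col5a3 did not pass the test. Col6a6, a chain of microfibrillar collagen, was the one collagen called higher, and it is named after its values were seen. It held 14.1, 11.4, 40.6 and 67.3 counts in TAC-Veh and 64.4, 121, 76.5 and 71.3 in TAC-THZ1, with an overlap between the groups (log2 fold change 1.60, SE 0.39, adjusted p = 0.00593). Its change was 0.62 without TAC-Veh replicates 1 and 2, and the call was lost (adjusted p = 0.0699). In Sham-Veh it stood at 234 ± 27.7 (SD, n = 4).

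Enzymes that process collagen fell with it: 16 of 17 tested were lower and none was higher. Lox, a lysyl oxidase that cross-links collagen, had 3389.6, 4471, 573 and 894 counts in TAC-Veh and 244, 148, 194 and 153 in TAC-THZ1. The groups did not overlap, and Lox changed by -3.20 on the log2 scale (SE 0.45, adjusted p = 1.89e-04). Since replicates 1 and 2 of TAC-Veh carried much of its level, leaving them out gave -1.98 (adjusted p = 2.78e-05). Loxl2, a related cross-linking enzyme, went from 2917, 4870.1, 1632 and 2239 to 418, 466, 639 and 709 (log2 fold change -2.30, SE 0.24, adjusted p = 2.94e-05). Its TAC-THZ1 mean of 558 ± 138 was below the Sham-Veh mean of 829 ± 76.9 (SD, n = 4), a gap to Sham-THZ1 that missed the threshold (log2 fold change -0.59, adjusted p = 0.0787). Serpinh1, the collagen chaperone HSP47, changed less, at -0.58 (SE 0.16, adjusted p = 0.0115), and its groups overlapped.

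Matricellular proteins and proteoglycans, which bind collagen and growth factors, had a median log2 fold change of -1.70. Comp, cartilage oligomeric matrix protein, had 3897, 4338, 1153 and 1936 counts in TAC-Veh and 364, 106, 267 and 263 in TAC-THZ1 (log2 fold change -3.44, SE 0.38, adjusted p = 4.30e-05). Fmod, the collagen-binding proteoglycan fibromodulin, had 1013, 837, 334 and 559 against 41.5, 40.7, 91.1 and 92.0 (-3.34, SE 0.37, adjusted p = 4.25e-05). For both genes every TAC-THZ1 library was below every TAC-Veh library and above the Sham-Veh means of 54.5 and 11.3. Thbs4, a thrombospondin of stressed muscle, fell by 2.97 on the log2 scale (SE 0.36, adjusted p = 6.16e-05). Cilp, a matrix protein of activated fibroblasts, fell by 2.93 (SE 0.30, adjusted p = 2.94e-05). Mfap4, a microfibril protein, changed by -2.34 on the log2 scale (SE 0.24, adjusted p = 2.93e-05), and Serpinf1, the secreted factor PEDF, by -1.76 (SE 0.17, adjusted p = 2.41e-05). Thbs2 and Nov were the members of the list that did not pass the test.

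**Figure D2:**
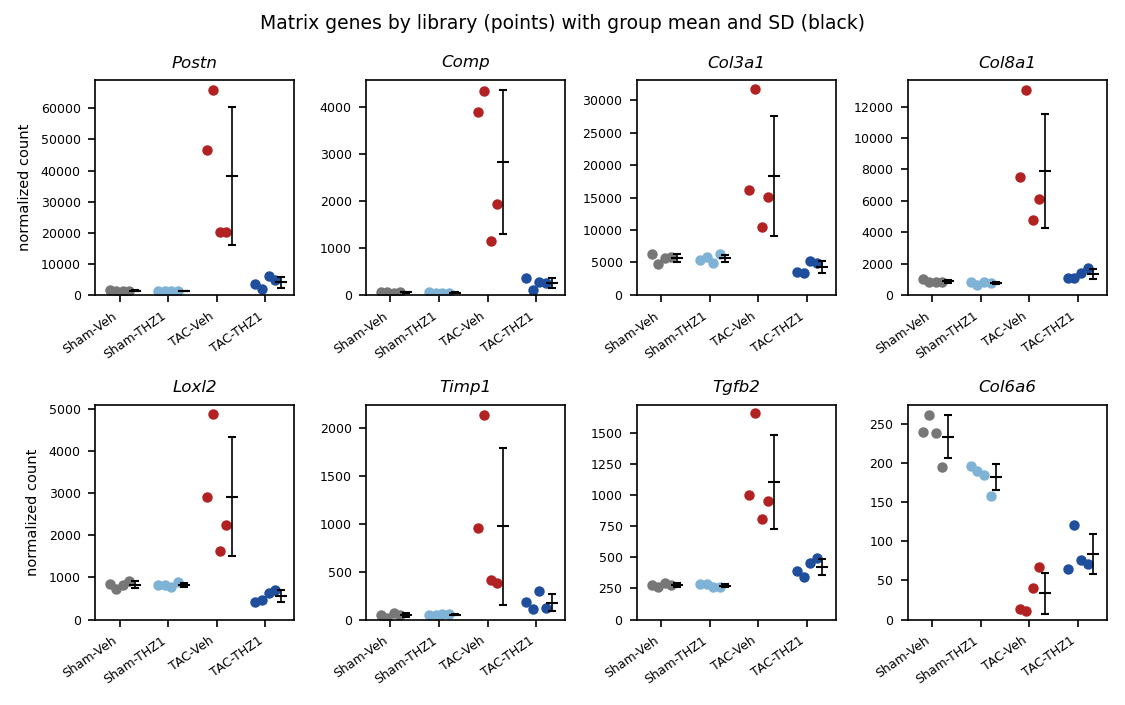
Normalized counts of 8 matrix genes in the 16 libraries, by group, on linear axes from 0; points are libraries and black marks the mean ± SD (n = 4). In 7 of the 8 panels the TAC-THZ1 points lie below the TAC-Veh points without overlap, and in the panel of Col6a6 the TAC-THZ1 mean of 83.3 is above the TAC-Veh mean of 33.4 with overlap.

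Proteases that cut matrix and their inhibitors were lower for 13 of 20 and higher for 1. Timp1, a secreted inhibitor of metalloproteinases, had 963, 2142, 413 and 387 counts in TAC-Veh and 187, 108, 298 and 124 in TAC-THZ1. The difference came to -2.19 on the log2 scale (SE 0.47, adjusted p = 0.00291), and -1.27 without TAC-Veh replicates 1 and 2 (adjusted p = 0.0411). Mmp2, a gelatinase of fibroblasts, went from 5127, 4857, 2919 and 3779 to 1650.1, 1468, 1518 and 1934, which are near the Sham-Veh mean of 1593 ± 119 (SD, n = 4). That fall was 1.32 on the log2 scale (SE 0.14, adjusted p = 3.19e-05). Adamtsl2, a secreted protein of microfibrils, had 2792, 1958, 1462 and 1762 counts against 406, 407, 318 and 627 (log2 fold change -2.18, SE 0.21, adjusted p = 1.84e-05). Mmp9, a gelatinase that neutrophils also carry, is the one that rose and is named after its values were seen. Its counts were 10.6, 7.87, 11.9 and 18.7 in TAC-Veh and 219.5, 47.1, 144 and 32.7 in TAC-THZ1 (log2 fold change 2.74, SE 0.49, adjusted p = 9.43e-04). The highest values were in TAC-THZ1 replicates 1 and 3, the libraries with the highest neutrophil marker sums, and without them its change was 1.66 (adjusted p = 0.011).

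Within the TGF-beta family, whose ligands activate fibroblasts, 14 of 26 genes were lower and 1 was higher. The 14 became 7 without TAC-Veh replicates 1 and 2, and also 7 in a fit of the 8 TAC libraries alone. Among the ligands, Tgfb1, Tgfb2 and Tgfb3 were lower. Tgfb2 counts were 1002, 1655, 806 and 955 in TAC-Veh and 392, 345, 458 and 491 in TAC-THZ1 (log2 fold change -1.35, SE 0.16, adjusted p = 6.13e-05), with no overlap. Tgfb1 counts were 654, 693, 449.8 and 620.1 against 494, 418, 513 and 397 (log2 fold change -0.40, SE 0.11, adjusted p = 0.0152), with overlap. The Tgfb1 call was lost without TAC-Veh replicate 2 (adjusted p = 0.0595), TAC-THZ1 replicate 4 (adjusted p = 0.0506) or both TAC-Veh replicates 1 and 2 (-0.22, adjusted p = 0.217). Ltbp2, a latent TGF-beta binding protein of microfibrils, had 5151, 6792, 1709.9 and 3211 counts against 447, 246, 581 and 489.9 (log2 fold change -3.14, SE 0.35, adjusted p = 4.30e-05). Gdf15, a stress-induced secreted member of the family, had 344, 652, 168 and 325 against 45.9, 30.6, 20.3 and 32.7 (log2 fold change -3.38, SE 0.39, adjusted p = 5.48e-05). The TAC-THZ1 values of Gdf15 all lay above the Sham-Veh mean of 18.0 ± 6.23 (SD, n = 4) and far below those of TAC-Veh. Bmp7, a ligand with actions opposed to TGF-beta in other organs, was the member called higher and is named after its values were seen. It went from 16.5, 9.30, 13.9 and 18.7 to 39.3, 24.2, 49.6 and 27.7 (log2 fold change 1.20, SE 0.26, adjusted p = 0.00327), and Sham-Veh stood at 38.7 ± 10.5 (SD, n = 4). Without TAC-THZ1 replicates 1 and 3 its change was 0.83 and the call was lost (adjusted p = 0.0533). The receptors Tgfbr1 and Tgfbr2 were lower, and Tgfbr3, Smad2, Smad3 and Smad4 did not pass the test.

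Of 15 fibroblast transcription factors, 5 were lower and none was higher. In a fit of the 8 TAC libraries alone 2 were lower. Meox1, a homeobox factor of activated fibroblasts, had 2079, 3099.6, 953 and 1462 counts in TAC-Veh and 440.1, 349, 545 and 584 in TAC-THZ1 (log2 fold change -1.88, SE 0.26, adjusted p = 1.46e-04). Sham-Veh held 344 ± 49.4 (SD, n = 4), and the TAC-THZ1 libraries began at that level. Scx, the tendon and matrix factor scleraxis, fell by 0.87 on the log2 scale (SE 0.18, adjusted p = 0.00257), and by 0.50 without TAC-Veh replicates 1 and 2 (adjusted p = 0.0482). Tcf21, which marks resting fibroblasts, had 181, 353, 258 and 243 against 229, 171, 247 and 237, with a log2 fold change of -0.20 that did not pass the test (adjusted p = 0.38).

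Markers of the fibroblasts themselves moved in part with the matrix genes. All 10 activated fibroblast markers were lower, and several of them are also members of the matrix lists. Cthrc1, a secreted protein of activated fibroblasts, had 283, 606, 63.4 and 66.4 counts in TAC-Veh and 13.1, 7.64, 28.5 and 16.8 in TAC-THZ1 (log2 fold change -3.38, SE 0.66, adjusted p = 0.00153). The change of Cthrc1 without TAC-Veh replicates 1 and 2 was -2.05 (adjusted p = 0.0296). Of 9 general fibroblast markers 5 were lower (3 in a fit of the 8 TAC libraries alone), and their summed level was 82445 to 96250 in TAC-Veh and 59386 to 84380.5 in TAC-THZ1. Pdgfra, the receptor found on most cardiac fibroblasts, had 1527, 1273, 1263 and 1702 counts against 1395, 1029.9, 1222 and 1156. Its change of -0.26 did not pass the test (adjusted p = 0.076), and it passed without TAC-Veh replicate 3 (adjusted p = 0.036), TAC-THZ1 replicate 1 (adjusted p = 0.0324) or TAC-THZ1 replicates 1 and 3 (-0.39, adjusted p = 0.0317). Mfap5 and Pi16, markers of adventitial fibroblasts, had log2 fold changes of -2.12 (SE 0.27, adjusted p = 9.60e-05) and -1.13 (SE 0.17, adjusted p = 3.18e-04). The part that the number of fibroblasts has in the matrix falls was not tested.

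Cardiomyocyte stress genes, which the ventricle re-expresses under load, were lower for 10 of 12 and higher for none, with a median log2 fold change of -1.12. Nppa and Nppb, neighbours on chromosome 4, encode the natriuretic peptides ANP and BNP. Nppa counts were 199788, 112703, 54193 and 49207 in TAC-Veh and 35178, 12865, 42633 and 19261 in TAC-THZ1. The 2 high libraries of TAC-Veh were again replicates 1 and 2, and no TAC-THZ1 value reached the lowest TAC-Veh value. The mean was 3.78-fold lower with THZ1 (log2 fold change -1.83, SE 0.40, adjusted p = 0.00297), and without TAC-Veh replicates 1 and 2 the change was -1.06 (adjusted p = 0.0457). Nppb counts were 27977, 21919.9, 15636 and 13076 against 10630.1, 7065, 13234 and 11292. One TAC-THZ1 library exceeded the lowest TAC-Veh library, and the difference was -0.87 on the log2 scale (SE 0.21, adjusted p = 0.00529). Without TAC-Veh replicates 1 and 2 the Nppb change was -0.47 and did not pass the test (adjusted p = 0.0903). Both TAC-THZ1 means, 27484 for Nppa and 10555 for Nppb, stayed above the Sham-THZ1 means of 3090.4 and 2532.

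Further stress genes fell with all 4 TAC-THZ1 libraries below TAC-Veh. Rcan1, a calcineurin-responsive inhibitor of calcineurin, had 6522, 10071, 6637 and 7216 counts in TAC-Veh and 3131, 2032, 3868 and 2746 in TAC-THZ1 (log2 fold change -1.38, SE 0.16, adjusted p = 5.19e-05). Xirp2, an actin-binding protein of the intercalated disc, went from 62941, 92832, 57256 and 58671 to 23787, 24337, 25386 and 36582 (log2 fold change -1.30, SE 0.15, adjusted p = 5.48e-05). Fhl1, a LIM-domain protein of the stretched sarcomere, fell by 1.22 (SE 0.19, adjusted p = 2.89e-04). For these 3 genes the groups did not overlap. Ankrd1, Ankrd2, Acta1, Xirp1 and Flnc were also called lower, and Myh7 and Csrp3 did not pass the test.

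RefSeq listed promoters for 11 of the 12 stress genes, and TATAAA was found within 250 bases before a listed start in 5 of them (45.5%). Counted in the same way, by gene and on both strands, these letters were in 8.21% of the 10435 genes tested that had a promoter listed, and they were in 12.4% of all 32851 single promoters. CATTCC, the core of TEAD sites, was in 5 of the 11 as well, against 13.1% of those genes and 12.6% of single promoters. In other lists TATAAA was in 46.7% of 15 matricellular genes, 5.88% of 17 collagens and 0% of 26 cell cycle genes. It was in 9.65% of genes called lower and 7.94% of genes called higher. The stress genes had a mean of 1.45 listed starts per gene, against 1.28 over the genes tested. A match is a description of the letters and not a site of binding. Because stress genes were the cardiomyocyte genes that fell most, the promoters of Nppa (chr4:148000472-148000721, plus strand) and Nppb (chr4:147985650-147985899, plus strand) on build GRCm38.p6 are shown. Capitals mark TATAAA, 9 bases before the listed start of Nppa and 31 before that of Nppb.
Nppa: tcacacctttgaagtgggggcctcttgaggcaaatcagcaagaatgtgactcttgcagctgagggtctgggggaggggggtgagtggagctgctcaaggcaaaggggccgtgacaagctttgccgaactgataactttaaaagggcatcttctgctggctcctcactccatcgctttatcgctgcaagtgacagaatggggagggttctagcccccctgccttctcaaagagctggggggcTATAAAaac
Nppb: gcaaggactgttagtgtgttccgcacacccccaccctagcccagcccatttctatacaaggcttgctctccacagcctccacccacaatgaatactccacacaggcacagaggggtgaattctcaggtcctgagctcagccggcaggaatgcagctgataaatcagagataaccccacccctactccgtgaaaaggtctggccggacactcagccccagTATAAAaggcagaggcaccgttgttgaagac

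Of 17 adult sarcomere genes, 5 were higher and none was lower, with a median log2 fold change of 0.25. That count was 8 without TAC-Veh replicate 4, 3 without TAC-THZ1 replicate 2 and 1 in a fit of the 8 TAC libraries alone. Myl2, the ventricular myosin light chain, had 226885, 121046, 191440.1 and 148996 counts in TAC-Veh and 244174, 316186, 252383 and 262638 in TAC-THZ1 (log2 fold change 0.68, SE 0.16, adjusted p = 0.00584). Tnni3, cardiac troponin I, rose by 0.65 (SE 0.13, adjusted p = 0.0016) to 98849 ± 10354, against 102290.0 ± 2806 in Sham-Veh (SD, n = 4). In neither gene did the groups overlap. Myh6, the adult myosin heavy chain, had 176848, 162375, 245735 and 317577 counts against 262747, 357361, 287475 and 307407, and its change of 0.47 did not pass the test (adjusted p = 0.0701). TAC-Veh replicate 4 was above 3 of the TAC-THZ1 libraries, and without it the change of Myh6 was 0.65 (adjusted p = 0.0103).

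Calcium handling genes were higher for 8 of 15 and lower for none. Pln, the brake on the calcium pump of the sarcoplasmic reticulum, had 83448, 65741, 106287 and 93811 counts in TAC-Veh and 137665, 159503, 114298 and 138340.3 in TAC-THZ1 (log2 fold change 0.67, SE 0.14, adjusted p = 0.00219). Hrc, which binds calcium in that store, went from 13302, 10620.3, 19699.9 and 18439 to 21693, 29004, 21034 and 25192 (0.67, SE 0.15, adjusted p = 0.00365). Ryr2, the calcium release channel, rose by 0.42 (SE 0.11, adjusted p = 0.00899). Without TAC-Veh replicates 1 and 2 the rise was 0.33 for Hrc (adjusted p = 0.0338), and for Ryr2 the call was lost (0.22, adjusted p = 0.123). All 3 lacked overlap between the groups. Atp2a2, the pump itself, had 96390.2, 92706, 141695 and 173886 counts against 165354, 209832, 158717 and 184082, and here TAC-Veh replicate 4 lay inside the TAC-THZ1 range. Its rise of 0.55 (SE 0.18, adjusted p = 0.0274) missed the threshold without TAC-Veh replicate 1 (adjusted p = 0.0783), TAC-Veh replicate 2 (0.0779), TAC-THZ1 replicate 2 (0.0834) or TAC-THZ1 replicate 4 (0.0583). The count of 8 fell to 5 without TAC-Veh replicate 1 and to 4 without TAC-Veh replicate 2, TAC-THZ1 replicate 2 or TAC-THZ1 replicate 4. It was 2 without TAC-Veh replicates 1 and 2, and 4 with array weights, which give less weight to libraries that vary more. In a fit of the 8 TAC libraries alone no member passed. Quantile normalization ended the calls of Ryr2 (0.28, adjusted p = 0.0817) and Atp2a2 (0.26, adjusted p = 0.258).

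Potassium channels carry the repolarising currents of the heart, and 14 of 18 were higher while 1 was lower. The 14 became 8 without TAC-Veh replicates 1 and 2, and 9 in a fit of the 8 TAC libraries alone. Kcnip2 and Kcnd2 encode subunits of the fast transient outward channel. Kcnip2 counts were 1229.8, 1001, 1741 and 1893 in TAC-Veh and 2818, 3089.7, 2367 and 2915 in TAC-THZ1 (log2 fold change 0.97, SE 0.15, adjusted p = 3.11e-04). Kcnd2 counts were 166, 221, 279 and 296 against 339.6, 485, 321 and 341 (log2 fold change 0.64, SE 0.15, adjusted p = 0.0056), and without TAC-Veh replicates 1 and 2 the change was 0.35 (adjusted p = 0.0748). Kcnj3 encodes a subunit of the acetylcholine-gated channel. It had 312, 315, 691 and 608 counts in TAC-Veh and 958, 1465, 1122 and 1123 in TAC-THZ1 (log2 fold change 1.35, SE 0.21, adjusted p = 2.96e-04). Kcnj11, a subunit of the ATP-sensitive channel, rose by 0.65 (SE 0.11, adjusted p = 4.67e-04) to 3013 ± 111, against 3007 ± 248 in Sham-Veh (SD, n = 4). Kcnv2, a modifier subunit, rose most in the list, by 1.92 (SE 0.37, adjusted p = 0.0016). Without TAC-Veh replicates 1 and 2 the rises were 0.62 for Kcnip2, 0.83 for Kcnj3, 0.40 for Kcnj11 and 1.05 for Kcnv2. For these 5 genes no TAC-Veh value reached the TAC-THZ1 values, and TAC-Veh replicates 1 and 2 were the lowest 2 libraries in each.

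Tubulin genes went both ways, with 6 of 16 lower and 2 higher. The count of 6 fell to 2 without TAC-Veh replicates 1 and 2 and to 1 in a fit of the 8 TAC libraries alone. Tuba1c fell by 0.53 (SE 0.11, adjusted p = 0.00235), from 410.3, 347, 345 and 337 counts to 245, 223, 317 and 219, and the groups did not overlap. Tuba4a rose by 0.77 (SE 0.20, adjusted p = 0.00853), from 8482, 6829, 10875 and 6867 to 12553, 11960.2, 22945 and 10717. TAC-THZ1 replicate 3 was far above the rest for Tuba4a, and without TAC-THZ1 replicates 1 and 3 the call was lost (0.48, adjusted p = 0.0565), as it was without TAC-Veh replicates 1 and 2 (0.68, adjusted p = 0.0653).

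**Figure D3:**
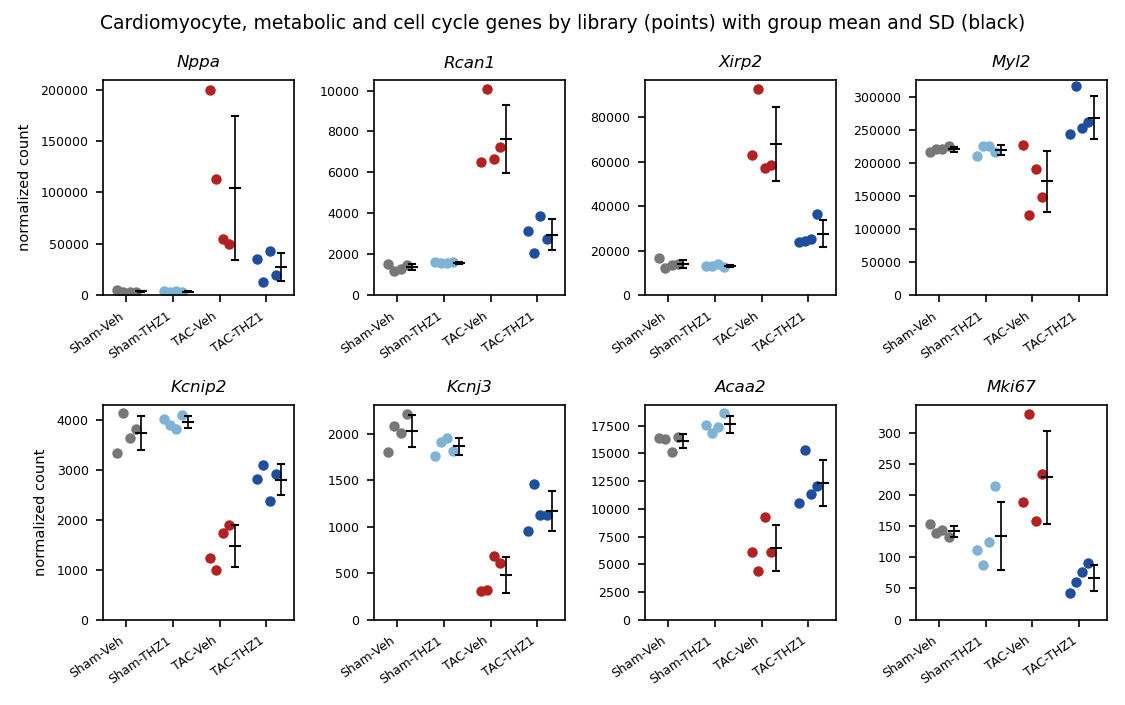
Normalized counts of 8 genes, mostly of cardiomyocytes, in the 16 libraries, by group, on linear axes from 0; points are libraries and black marks the mean ± SD (n = 4). TAC-THZ1 lies below TAC-Veh for Nppa, Rcan1, Xirp2 and Mki67 and above it for Myl2, Kcnip2, Kcnj3 and Acaa2, with no overlap in any panel.

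Fatty acid oxidation, the main source of energy of the adult heart, had 21 of 29 genes higher and 1, Pdk4, lower, with a median log2 fold change of 0.49. Cpt1b, the muscle carnitine palmitoyltransferase that brings fatty acids into mitochondria, had 12727, 10058, 14775 and 12049 counts in TAC-Veh and 15709, 18366, 17005 and 16578 in TAC-THZ1 (log2 fold change 0.46, SE 0.09, adjusted p = 0.00173). Acaa2, the thiolase that ends each cycle of beta-oxidation, went from 6062, 4373, 9291 and 6089 to 10556, 15294, 11328 and 12052 (0.97, SE 0.16, adjusted p = 5.17e-04). Eci1, an isomerase for unsaturated fatty acids, went from 2906, 1953, 3701 and 2798 to 4549.5, 5678, 4444 and 4948 (0.82, SE 0.13, adjusted p = 4.61e-04). Etfb, which passes electrons from these reactions to the respiratory chain, rose by 0.75 (SE 0.12, adjusted p = 4.54e-04), and Acadm, the medium-chain dehydrogenase, by 0.55 (SE 0.12, adjusted p = 0.00293). In each of these 5 genes all TAC-THZ1 libraries were above all TAC-Veh libraries. The list had a median of -0.75 for TAC-Veh against Sham-Veh and of -0.39 for TAC-THZ1 against Sham-THZ1. Both contrasts share their TAC libraries with the comparison of THZ1 in TAC. In a fit of the 8 TAC libraries alone the count was 10.

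Of 16 metabolic regulators, the receptors and coactivators that control these genes, 7 were higher and none was lower. Esrra, the estrogen-related receptor alpha, had 1513, 1440.1, 1916 and 1740.2 counts in TAC-Veh and 2505, 2500.2, 2503 and 2146 in TAC-THZ1 (log2 fold change 0.55, SE 0.08, adjusted p = 2.50e-04). Rxrg, a retinoid X receptor, rose by 0.68 (SE 0.12, adjusted p = 7.05e-04). Ppargc1a, the coactivator PGC-1 alpha, was called higher as well, and Ppara did not pass the test. The count of 7 was 4 without TAC-THZ1 replicate 2 or without TAC-THZ1 replicates 1 and 3, and 2 without TAC-Veh replicates 1 and 2. It was 3 in a fit of the 8 TAC libraries alone and 2 with array weights.

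Of 24 genes of glucose transport and glycolysis, 7 were higher and 3 lower. The 3 became 1 without any single one of TAC-Veh replicate 1, TAC-Veh replicate 2, TAC-THZ1 replicate 2 and TAC-THZ1 replicate 4, and 1 as well without both TAC-Veh replicates 1 and 2. It became 5 without TAC-THZ1 replicates 1 and 3, and 1 with array weights or in a fit of the 8 TAC libraries alone. Slc2a4, the insulin-responsive glucose transporter GLUT4, had 6042, 4914, 7191 and 5973 counts against 9787, 9729, 9271 and 8931 (log2 fold change 0.66, SE 0.09, adjusted p = 1.07e-04). The TAC-THZ1 mean of Slc2a4 was 9429 ± 404, against 9577 ± 538 in Sham-Veh (SD, n = 4). Slc2a1, the transporter GLUT1 that is high in the fetal heart, was called lower. Pfkfb1, a liver and muscle isoform of the enzyme that tunes the rate of glycolysis, went from 57.6, 37.2, 105 and 63.0 to 108, 350.1, 151 and 167 and is named after its values were seen (log2 fold change 1.50, SE 0.30, adjusted p = 0.00173).

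The nuclear genes of the respiratory chain rose together by small amounts. Of 77 tested, 67 were higher and none was lower, none reached 0.89, and the median log2 fold change was 0.43. Sdhc and Sdha belong to complex II, the succinate dehydrogenase. Sdhc counts were 6235, 4826, 6256 and 5794 in TAC-Veh and 7589, 9138, 8497 and 7957 in TAC-THZ1 (log2 fold change 0.53, SE 0.08, adjusted p = 2.45e-04). Sdha counts were 21500.1, 17133, 23672 and 22569 against 28345, 35715, 27121 and 29984 (0.52, SE 0.10, adjusted p = 0.0014). Ndufs7, a core subunit of complex I, rose by 0.54 (SE 0.09, adjusted p = 7.55e-04). In these 3 genes the groups did not overlap. The 12 mitochondrially encoded genes tested had a median of 0.35, close to that of their nuclear partners, yet none passed the test in limma, with 0 lower and 1 higher at an unadjusted p under 0.05. For mt-Nd2 the counts were 746510.2, 523178, 865124 and 613160.0 against 919883, 1047084, 720933 and 965399, with overlap (log2 fold change 0.42, SE 0.20, adjusted p = 0.123), and without TAC-Veh replicate 3 it passed (0.54, adjusted p = 0.0498).

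Mitochondrial ribosomal proteins, which translate the mitochondrial genes, were higher for 46 of 73 and lower for none, with a median of 0.28. Mrps35 had 1197, 881, 1333 and 977 counts in TAC-Veh and 1539.8, 1847, 1622 and 1539.9 in TAC-THZ1 (log2 fold change 0.59, SE 0.10, adjusted p = 7.35e-04). Mrpl42 rose by 0.49 (SE 0.10, adjusted p = 0.00197). For this list TAC-Veh against Sham-Veh had a median of -0.02 and TAC-THZ1 against Sham-THZ1 one of 0.25. Leaving out TAC-Veh replicate 2 brought the count from 46 to 26, leaving out TAC-Veh replicates 1 and 2 brought it to 29, and in the respiratory chain leaving out TAC-Veh replicate 2 or TAC-THZ1 replicate 2 brought 67 to 42. In fits of the 8 TAC libraries alone 7 members of each list passed, where 583 of the 13331 genes tested were higher. The summed level of the 9 cardiomyocyte markers moved with both lists, at 859716 to 1233646 in TAC-Veh and 1375989.9 to 1696062 in TAC-THZ1, with 6 of the 9 higher and none lower (1 higher in a fit of the 8 TAC libraries alone). Its part in the mitochondrial result was not tested.

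Cytosolic ribosomal proteins, by contrast, were higher for 3 of 78 and lower for none, with a median of 0.14. TAC-Veh replicate 1 had the highest summed level of this list, and without it 43 members were higher, or 47 without TAC-Veh replicates 1 and 2. With array weights the count was 6, and in a fit of the 8 TAC libraries alone 1. Rpl3l, a muscle form of ribosomal protein L3, stood apart from the list with 1992, 1454, 3339 and 2683 counts in TAC-Veh and 4962, 6288, 4256 and 5507 in TAC-THZ1 (log2 fold change 1.20, SE 0.18, adjusted p = 2.50e-04). Its rise was 0.80 without TAC-Veh replicates 1 and 2. Proteasome subunits were lower for 3 of 37 and higher for none, with a median of 0.01. That count was 1 without TAC-Veh replicates 1 and 2 or with array weights, and 0 without TAC-THZ1 replicates 1 and 3 or in a fit of the 8 TAC libraries alone. Psmd8, a lid subunit, went from 3292, 2886, 2899.8 and 2486 to 2338, 2395, 2198 and 2446 (log2 fold change -0.30, SE 0.07, adjusted p = 0.00542), and the call was lost without TAC-Veh replicates 1 and 2 (-0.20, adjusted p = 0.061) or TAC-THZ1 replicates 1 and 3 (-0.25, adjusted p = 0.0512). Ubiquitin ligase and autophagy genes were higher for 3 of 18 (16.7%, against 15.1% of all genes) and lower for 1. The atrophy ligases Fbxo32 and Trim63 did not pass the test. The 3 higher became 5 without TAC-Veh replicate 1 and 1 without TAC-Veh replicates 1 and 2, with array weights or in a fit of the 8 TAC libraries alone.

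Cell cycle genes fell, with 20 of 31 lower and 1 higher and a median log2 fold change of -1.11. The 20 became 12 without TAC-Veh replicates 1 and 2, 13 with array weights and 9 with a minimum mean of 50 counts, which leaves fewer genes to test. Mki67, which encodes the proliferation antigen Ki-67, had 189, 330.3, 159 and 234 counts in TAC-Veh and 42.6, 59.8, 75.7 and 91.0 in TAC-THZ1 (log2 fold change -1.75, SE 0.26, adjusted p = 2.77e-04). Sham-Veh held 142 ± 8.57 and Sham-THZ1 135 ± 54.9 (SD, n = 4), so all 4 TAC-THZ1 libraries were below the sham means. For Mki67 the difference from Sham-THZ1 passed the test (-0.96, adjusted p = 0.0162). Prc1, which bundles microtubules of the midzone, had 75.2, 135, 62.4 and 97.1 against 14.2, 20.4, 18.7 and 29.7 (log2 fold change -2.09, SE 0.27, adjusted p = 8.95e-05). Against Sham-THZ1, Prc1 was at -1.30 (adjusted p = 0.00368). Tpx2, a spindle factor, changed by -1.87 on the log2 scale (SE 0.27, adjusted p = 2.40e-04), and Top2a, the topoisomerase of mitosis, by -1.71 (SE 0.30, adjusted p = 7.67e-04). Among the replication genes of the list, Mcm6 was lower, and Mcm2, Mcm3, Mcm4, Mcm5, Mcm7 and Pcna did not pass the test. Cenpf, a kinetochore protein, went the other way and is named after its values were seen. It had 106, 105, 75.3 and 97.1 counts in TAC-Veh, 158, 360.3, 219.7 and 133 in TAC-THZ1 and 765 ± 219.9 in Sham-Veh (log2 fold change 1.08, SE 0.26, adjusted p = 0.00534).

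Of 18 DNA repair genes, some of which need CDK12 for expression in other cells, 3 were lower, Brca1 and Blm among them, and 1, Nbn, was higher. These were 16.7% and 5.56% of the list, against 14.2% and 15.1% of all genes. Nbn, of the complex that senses breaks, had 491, 493, 524 and 491 counts against 627, 666, 550.1 and 575 (log2 fold change 0.27, SE 0.06, adjusted p = 0.00512). The count of 3 lower became 7 without TAC-Veh replicate 1, 1 without TAC-Veh replicate 2 or replicate 4 and 0 without TAC-THZ1 replicate 2. It was 1 without either pair of libraries, 0 with array weights, a minimum mean of 50 counts or a fit of the 8 TAC libraries alone, and 5 with DESeq2 or edgeR on recovered reads. Neither CDK7 nor CDK12, which THZ1 binds, passed the test for the level of its transcript. Cdk7 had 578, 606, 569 and 609 counts in TAC-Veh and 545, 620.0, 642 and 595 in TAC-THZ1 (log2 fold change 0.02, SE 0.06, adjusted p = 0.826). Cdk12 had 286, 348, 299 and 377 against 294, 294, 344 and 353 (log2 fold change -0.02, SE 0.09, adjusted p = 0.871). Their values overlapped, and the sign of both changes turned when 1 library was left out, to -0.01 for Cdk7 without TAC-THZ1 replicate 3 and to 0.01 for Cdk12 without TAC-Veh replicate 2. Ccnh, the cyclin partner of CDK7, rose by 0.38 (SE 0.08, adjusted p = 0.00171), from 536, 467, 594 and 477 to 697, 712, 633 and 651. In all, 4 of 25 genes of polymerase II kinases and subunits were higher (16%, against 15.1% of all genes) and none was lower. Without TAC-Veh replicate 2 or 1 of TAC-THZ1 replicates 1, 2 and 4 that count was 1, and without TAC-Veh replicate 4 it was 2. It was also 2 without either pair of libraries or with array weights, and 1 in a fit of the 8 TAC libraries alone.

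Cyp1a1 had the largest log2 fold change of the 13331 genes. It encodes a cytochrome P450 enzyme that the aryl hydrocarbon receptor switches on in response to many foreign compounds. Its counts were 0, 0, 5.94 and 0 in TAC-Veh and 1541, 1528, 849.5 and 1006 in TAC-THZ1. Since 3 of the 4 TAC-Veh libraries were at 0, no ratio of means is given. On the log2 scale the difference was 9.52 (SE 0.54, adjusted p = 4.71e-08). With so few reads in TAC-Veh the fitted change depends on the pseudocount, at 10.30 with 0.5 and 7.62 with 5. Sham-Veh held 9.42 ± 5.27 and Sham-THZ1 175 ± 61.6 (SD, n = 4). Thus the drug also raised Cyp1a1 in sham hearts, by 4.18 (adjusted p = 0.00297), and the difference between the effects was 5.34 (adjusted p = 0.00206). Both vehicle groups were near 0, so the size of this difference depends on the pseudocount as well. The gene lies at chr9:57545420-57551629 of NCBIM37. Its RefSeq promoter, chr9:57697363-57697612 on the plus strand of GRCm38.p6, is shown because the receptor binds GCGTG. Capitals mark the only GCGTG of the window, 54 bases before the start. A TATAAA follows 30 bases before the start and overlaps a match to the CArG box. GCGTG was on either strand in 28.2% of all promoters listed, and at one or more listed starts in 49.1% of the 10435 genes tested that had a promoter listed.
Cyp1a1: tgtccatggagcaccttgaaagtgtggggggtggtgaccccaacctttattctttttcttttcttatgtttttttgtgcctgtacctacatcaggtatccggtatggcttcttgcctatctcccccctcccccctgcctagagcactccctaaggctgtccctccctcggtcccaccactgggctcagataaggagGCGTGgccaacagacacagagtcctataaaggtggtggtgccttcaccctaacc

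Of the 8 tested members of the list of receptor targets, which holds Cyp1a1, the receptor Ahr and its partner Arnt, 2 were higher (Cyp1a1 and Ahrr) and 1 was lower. Ahrr, the receptor's repressor, had 27.0, 63.6, 96.1 and 76.7 counts in TAC-Veh and 156, 109, 149.7 and 108 in TAC-THZ1 (log2 fold change 1.10, SE 0.28, adjusted p = 0.00896). Its change was 0.72 without TAC-Veh replicate 1 (adjusted p = 0.00964), which was the lowest library, and the call was lost without TAC-Veh replicates 1 and 2 (0.58, adjusted p = 0.0639) or TAC-THZ1 replicates 1 and 3 (0.85, adjusted p = 0.0926). Tiparp, another target, was lower, with 710.1, 475, 486 and 461 against 388, 419, 393 and 394 (-0.40, SE 0.11, adjusted p = 0.014), and without TAC-Veh replicate 1 it was at -0.25 (adjusted p = 0.0172). Cyp1b1 and Nqo1 did not pass the test. Of 9 Nrf2 targets, 3 were lower and 2 higher, and 1 was lower with array weights or in a fit of the 8 TAC libraries alone. Srxn1, the sulfiredoxin of the antioxidant response, had 882, 933, 994 and 958 counts against 692, 714, 731 and 773 (-0.37, SE 0.07, adjusted p = 0.00112).

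Immediate early genes, which respond within minutes to growth signals, were lower for 7 of 24 and higher for none. Egr2 had 261, 218, 44.6 and 87.7 counts in TAC-Veh and 9.83, 16.5, 38.2 and 23.8 in TAC-THZ1 (log2 fold change -2.57, SE 0.48, adjusted p = 0.00119). Atf3, a stress-induced repressor, had 653, 442, 229 and 193 against 121, 77.7, 149 and 151 (-1.47, SE 0.31, adjusted p = 0.00279). TAC-Veh replicates 1 and 2 were the highest for both genes, and without them the changes were -1.62 (adjusted p = 0.0226) for Egr2 and -0.80 (adjusted p = 0.0411) for Atf3. Fos showed the same 2 libraries at 201 and 182 against 34.7 and 46.8 in replicates 3 and 4, and did not pass the test (-0.81, adjusted p = 0.277). Without them the sign of Fos turned, to 0.30 (adjusted p = 0.719). Nr4a3, an orphan nuclear receptor, had 392, 177, 249.7 and 249.6 in TAC-Veh and 193, 111, 127 and 105 in TAC-THZ1 (-0.97, SE 0.21, adjusted p = 0.00294), while THZ1 raised it by 1.46 in sham hearts (adjusted p = 0.00667). The count of 7 fell to 4 without TAC-Veh replicate 1 and to 3 without TAC-Veh replicate 2, TAC-THZ1 replicate 2 or both TAC-Veh replicates 1 and 2. It was 4 with array weights and 3 in a fit of the 8 TAC libraries alone.

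Among heat shock proteins, 4 of 16 were lower and 1 was higher, and 2 were lower with a minimum mean of 50 counts. Hspa1a, an inducible chaperone, had 88.2, 219.5, 80.2 and 52.8 counts in TAC-Veh and 41.5, 34.4, 23.6 and 32.7 in TAC-THZ1 (log2 fold change -1.53, SE 0.33, adjusted p = 0.00292). Its change without TAC-Veh replicates 1 and 2 was -0.98. A near-identical copy of it, Hspa1b, was lower too, and reads could be split between them. Hspb1, a small heat shock protein of muscle, went from 4329, 4302, 3928 and 3520.5 to 2536, 2528, 2479 and 2709.6 (-0.64, SE 0.08, adjusted p = 5.98e-05), with little spread in either group. Of 24 genes of the unfolded protein and integrated stress responses, 2 were lower and 3 higher, and Hspa5 and Atf4 did not pass the test. The 3 higher became 0 without TAC-THZ1 replicate 2 or in a fit of the 8 TAC libraries alone. They became 1 without TAC-Veh replicate 2, TAC-Veh replicate 4, TAC-THZ1 replicate 1 or both TAC-Veh replicates 1 and 2, and 1 with array weights. Targets of p53 were lower for 3 of 16 (18.75%, against 14.2% of all genes) and higher for 1 (6.25%, against 15.1%). The 3 lower became 5 without TAC-Veh replicate 1 or TAC-Veh replicate 3, and 6 with DESeq2 on recovered reads. Cdkn1a, the inhibitor p21, had 3080.3, 762, 485 and 578 against 781, 493, 510.2 and 313, and did not pass the test (-0.85, adjusted p = 0.144), with TAC-Veh replicate 1 far above the rest. Phlda3, an inhibitor of AKT signalling, fell by 0.91 (SE 0.16, adjusted p = 7.77e-04).

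Of 22 vasoactive genes, 3 were lower (13.6%, against 14.2% of all genes) and 5 were higher (22.7%, against 15.1%). Ace, the angiotensin-converting enzyme, had 6208, 6472, 4011 and 5644 counts in TAC-Veh and 2225, 1870.1, 1978 and 2366 in TAC-THZ1 (log2 fold change -1.39, SE 0.12, adjusted p = 8.91e-06). Sham-Veh held 1940.5 ± 109 (SD, n = 4), and TAC-THZ1 did not differ from Sham-THZ1 past the threshold (0.04, adjusted p = 0.819). Agtr1a, the receptor for angiotensin II, moved the other way, from 433, 307, 489 and 483 to 738, 909, 821 and 802 (0.95, SE 0.14, adjusted p = 1.95e-04). Adra1b, an alpha-adrenergic receptor, rose by 1.17 (SE 0.18, adjusted p = 3.05e-04). None of these 3 overlapped between the groups. Without TAC-Veh replicate 3, 6 members were lower, and without TAC-Veh replicate 2 or TAC-THZ1 replicate 2, 3 were higher. In a fit of the 8 TAC libraries alone 1 was lower and 3 were higher.

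Clock genes were lower for 4 of 16 and higher for 3. Bhlhe40, a repressor in the clock, went from 1899.9, 2410.4, 1486 and 2130.3 to 1092, 1136, 1422 and 1345 (log2 fold change -0.65, SE 0.13, adjusted p = 0.00194). Hlf, a clock output factor, had 247, 335, 546 and 494 against 544, 864, 637 and 685 (0.80, SE 0.21, adjusted p = 0.01). The groups overlapped for Hlf, and without TAC-Veh replicates 1 and 2 its change was 0.37 (adjusted p = 0.162). The time of day of tissue collection was not given in the sources used here. The count of 3 higher was 1 without TAC-Veh replicate 2, TAC-THZ1 replicate 2 or both TAC-Veh replicates 1 and 2, and 5 without TAC-Veh replicate 3 or TAC-THZ1 replicates 1 and 3. It was 0 with array weights. In a fit of the 8 TAC libraries alone 2 clock genes were lower and 0 higher.

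Genes outside these lists also led the changes. Dio2, the deiodinase that activates thyroid hormone, had 1498, 1926, 579 and 893 counts in TAC-Veh and 137, 58.6, 214 and 182 in TAC-THZ1 (log2 fold change -3.05, SE 0.37, adjusted p = 6.86e-05). Uck2, a uridine-cytidine kinase of nucleotide salvage, went from 2702, 3308, 1954 and 1904 to 858, 634, 815 and 935 (-1.58, SE 0.15, adjusted p = 2.41e-05). For both genes the Sham-Veh means of 47.3 and 459.7 were below all 4 TAC-THZ1 values. Among the rises, Gpr22, an orphan receptor of the heart, had 195, 206, 459 and 334 counts in TAC-Veh and 818, 1362, 1149.8 and 1058 in TAC-THZ1 (1.94, SE 0.22, adjusted p = 5.48e-05). Clcn1, the chloride channel of skeletal muscle, went from 9.41, 22.2, 69.3 and 57.9 to 103, 220.2, 130.2 and 161 (2.23, SE 0.42, adjusted p = 0.00128). Penk, the enkephalin precursor, rose by 2.38 (SE 0.44, adjusted p = 0.0011), and Tnip3, an inhibitor of NF-kappaB signalling, by 1.77 (SE 0.16, adjusted p = 1.41e-05). Tnip3 had 20.0, 15.0, 19.8 and 18.7 against 62.2, 85.3, 61.0 and 54.4, with little spread, and Sham-Veh stood at 67.6 ± 6.85 (SD, n = 4). The rise without TAC-Veh replicates 1 and 2 was 1.21 for Clcn1 and 1.33 for Penk.

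Markers of immune cells differed widely between libraries of a group. Of 7 neutrophil markers tested, 4 were higher with THZ1 and none was lower. S100a8, a calcium-binding protein that fills neutrophils, had 96.4, 50.1, 22.8 and 17.0 counts in TAC-Veh and 2840.5, 321, 1048 and 56.4 in TAC-THZ1 (log2 fold change 3.66, SE 0.93, adjusted p = 0.00768). S100a9, its partner, had 108, 81.5, 33.7 and 17.9 against 3518, 488, 1606 and 68.3 (3.75, SE 0.97, adjusted p = 0.00862). TAC-THZ1 replicate 4 lay inside the TAC-Veh range for both genes. Without TAC-THZ1 replicates 1 and 3 the changes were 1.83 (adjusted p = 0.129) and 1.90 (adjusted p = 0.148), and 1 of the 7 markers was called, as with array weights. In a fit of the 8 TAC libraries alone or with a minimum mean of 50 counts 2 were called. Summed over the 11 markers, TAC-Veh libraries held 184 to 758 counts and TAC-THZ1 libraries 319 to 9588. Of the defining granule genes, Ngp was at 0 in all 4 TAC-Veh libraries, Camp in 3 of them and in TAC-THZ1 replicate 2, and Ltf in TAC-Veh replicates 3 and 4 and TAC-THZ1 replicate 2.

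Erythroid genes were high in the same libraries. The sums of 7 erythroid markers were 31321 and 18420.3 in TAC-THZ1 replicates 1 and 3, 7129 and 8997 in replicates 2 and 4, and 7769 to 13467 in TAC-Veh, and none of the 7 passed the test in limma (0 lower and 1 higher at an unadjusted p under 0.05). Alas2, the enzyme that starts heme synthesis in red cells, had 619.6, 745, 497 and 417 counts against 2018, 322, 1274 and 442 (log2 fold change 0.48, adjusted p = 0.405), and without TAC-THZ1 replicates 1 and 3 its sign turned, to -0.56 (adjusted p = 0.111). None of 19 interferon response genes was called in either direction in limma (0 lower and 4 higher at an unadjusted p under 0.05). Gbp2, a guanylate-binding protein that interferon induces, had 1966 and 2693 counts in TAC-THZ1 replicates 1 and 3, 564 and 546 in replicates 2 and 4 and 369, 808, 628 and 740.2 in TAC-Veh (0.89, adjusted p = 0.107). Without TAC-THZ1 replicate 2 (adjusted p = 0.0356) or replicate 4 (adjusted p = 0.0273) Gbp2 was called higher, and without replicates 1 and 3 its sign turned (-0.14, adjusted p = 0.71).

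Chemokine and cytokine genes were higher for 4 of 20 and lower for 2. Ccl11, the eosinophil chemokine eotaxin, had 14.1, 8.58, 22.8 and 16.2 counts in TAC-Veh and 72.1, 109, 49.6 and 24.7 in TAC-THZ1 (log2 fold change 1.87, SE 0.34, adjusted p = 0.00107), and Sham-Veh stood at 134 ± 25.9 (SD, n = 4). Cx3cl1, the membrane-bound chemokine fractalkine, went from 633, 864, 394 and 504 to 336, 241, 400.4 and 251 (-0.93, SE 0.19, adjusted p = 0.0024), and its change was -0.57 without TAC-Veh replicates 1 and 2 (adjusted p = 0.0338). Ptgs2, the inducible cyclooxygenase, had 165, 248, 104 and 114 against 64.4, 59.8, 74.9 and 66.3 (-1.15, SE 0.26, adjusted p = 0.00387), and without TAC-Veh replicates 1 and 2 the call was lost (-0.71, adjusted p = 0.0656). The count of 4 higher was 1 without TAC-Veh replicate 1, TAC-THZ1 replicate 1 or TAC-THZ1 replicate 3, and without either pair of libraries. It was 1 with array weights or in a fit of the 8 TAC libraries alone.

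Macrophage markers did not follow the groups, with none of 13 called in limma (1 lower and 0 higher at an unadjusted p under 0.05) and sums of 11752 to 14041 in TAC-Veh and 8504 to 16122 in TAC-THZ1. Csf1r, the receptor that macrophages depend on, had 1443, 1892, 1628 and 2159 counts against 2044, 1221, 1706 and 1469 (log2 fold change -0.15, adjusted p = 0.408), and without TAC-THZ1 replicates 1 and 3 it was lower (-0.39, adjusted p = 0.0379). Of 5 T and B cell markers tested 2 were lower. Endothelial markers were lower for 4 of 13 and higher for 1, with sums of 34918 to 44880 against 31789.7 to 35413. Cdh5, the adhesion protein of endothelial junctions, went from 4236, 4202, 3744 and 6031 to 3437, 3699, 2977 and 3441 (-0.41, SE 0.12, adjusted p = 0.0175). It fell by 0.26 without TAC-Veh replicate 4 (adjusted p = 0.0358), and the call was lost without TAC-THZ1 replicate 3 (adjusted p = 0.0519) or without TAC-THZ1 replicates 1 and 3 (adjusted p = 0.116). The endothelial count was 2 without TAC-Veh replicate 2, TAC-Veh replicate 4, Sham-THZ1 replicate 1 or Sham-THZ1 replicate 2, and 1 without TAC-THZ1 replicate 3 or TAC-THZ1 replicates 1 and 3. It was 2 with quantile normalization and 0 in a fit of the 8 TAC libraries alone. Of 9 mural markers, 2 were lower and 1 was higher. Rgs5, of pericytes, had 11895, 11218, 12171 and 17047 against 12772, 12883, 11849 and 12868 (-0.04, adjusted p = 0.816), and its sign turned without TAC-Veh replicate 4 (0.10). Tagln, of smooth muscle and myofibroblasts, fell by 1.06 (SE 0.25, adjusted p = 0.00567), and without TAC-Veh replicates 1 and 2 the call was lost (-0.54, adjusted p = 0.112).

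**Figure D4:**
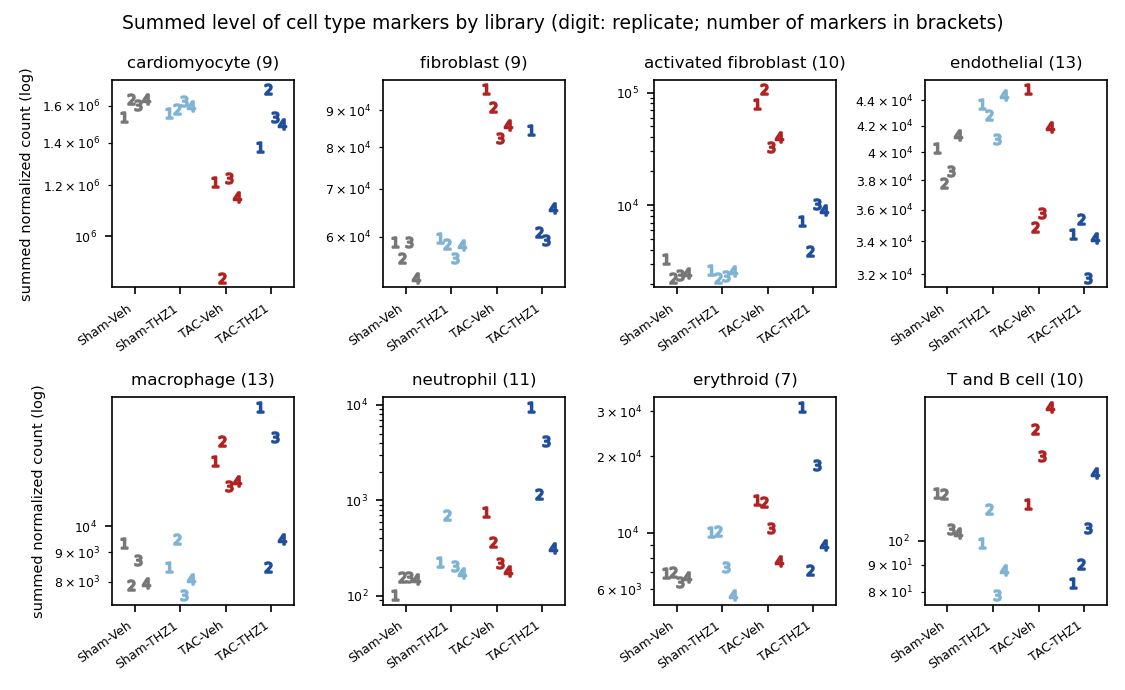
Summed normalized counts of cell type markers in each of the 16 libraries, by group, on a log axis; each digit is a replicate number. Activated fibroblast sums lie at 32862 to 106483 in TAC-Veh and at 3923.5 to 10281 in TAC-THZ1, and neutrophil sums are highest in TAC-THZ1 replicates 1 and 3.

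The same drug in sham hearts was tested in the fit of all 4 groups, which share 1 estimate of the spread. In limma, 6 genes were lower (0.045% of those tested) and 3 were higher (0.0225%) in Sham-THZ1 than in Sham-Veh, with 469 lower and 448 higher at an unadjusted p under 0.05. The sham groups fitted alone gave 178 lower and 287 higher genes, against 816 and 583 for the TAC groups fitted alone. Array weights gave 259 and 254 in sham, against 1102 and 1310 in TAC. Pairs of libraries of a group differed by 2.97 to 7.51 in chi-square per degree of freedom in sham and by 10.2 to 93.5 in TAC. In the fit of all groups the 3 higher were Cyp1a1, Nr4a3 and Efnb1, a membrane ligand of Eph receptors that rose by 0.65 (adjusted p = 0.0249). The 6 lower, mt-Nd6 and Map3k15 among them, each overlap on the other strand a gene with far more reads. Without genes of that kind, an alternative chosen after the data were seen, none was lower and 2 were higher. The spread of the drug effects was wider in TAC, with 5% to 95% of log2 fold changes between -0.78 and 0.60, against -0.29 and 0.29 in sham. The drug effect differed between TAC and sham for 749 genes with a more negative value in TAC (5.62%) and 587 with a more positive one (4.4%). The means of the sham contrast and of the contrast of THZ1 in TAC come from different libraries. Their p-values share the estimate of the spread, so the 2 contrasts are not independent.

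**Figure D5:**
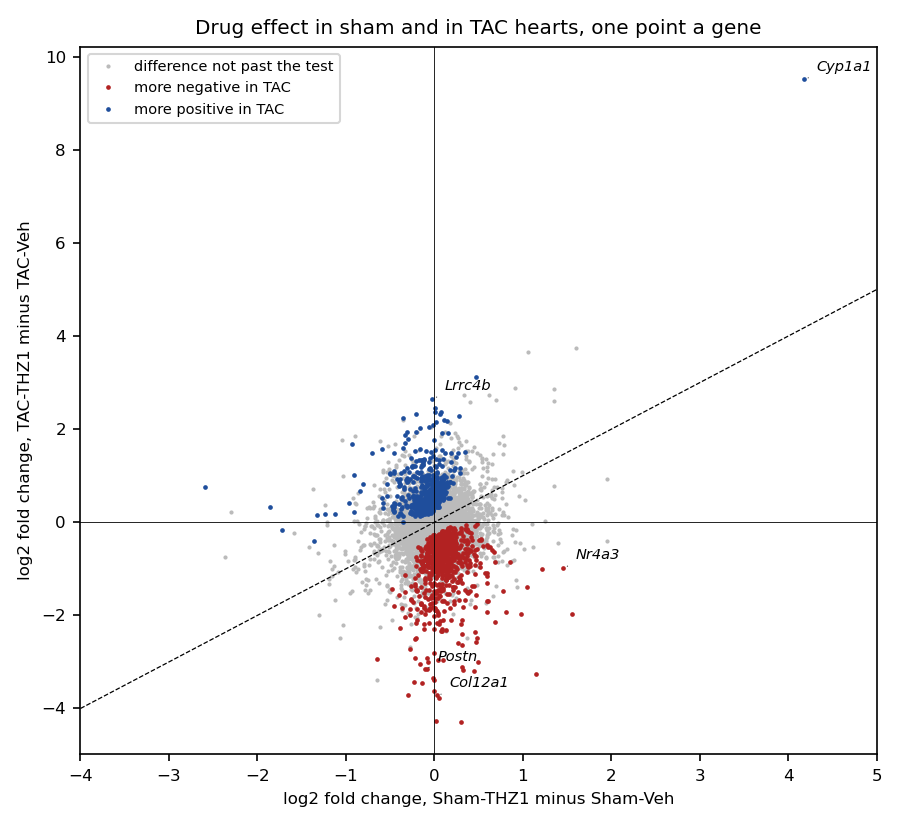
Log2 fold change with THZ1 in sham (horizontal axis) against that in TAC (vertical axis) for the 13331 genes, with the dashed line at equality; red marks the 749 genes with a more negative and blue the 587 with a more positive effect in TAC by the interaction test. The spread is wider along the vertical than along the horizontal axis, and Cyp1a1 lies far to the upper right.

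By this test, 18 of 22 collagens, 19 of 24 matricellular genes and 12 of 20 proteases and inhibitors had a drug effect that differed between TAC and sham. Over all genes the count was 1336 of 13331. For the nuclear respiratory chain it was 4 of 77, for the mitochondrial ribosome 8 of 73 and for fatty acid oxidation 4 of 29. Those 3 shares are near or below the share over all genes. Their median effects in sham were 0.07, 0.00 and 0.095, against 0.43, 0.28 and 0.49 in TAC. Among the stress genes 6 of 12 differed. Rcan1 did so at -1.61 (adjusted p = 0.00194) and Xirp2 at -1.19 (adjusted p = 0.00468). Nppa missed the threshold, at -1.75 (adjusted p = 0.0561), and Nppb did as well, at -0.43 (adjusted p = 0.358). In 8 of 16 clock genes and 8 of 18 potassium channels the effects differed. Immediate early genes had a median of 0.33 in sham and of -0.47 in TAC, and 5 of 24 differed. Egr2 was at -3.04 (adjusted p = 0.0126), Atf3 at -2.24 (adjusted p = 0.00715) and Nr4a3 at -2.43 (adjusted p = 0.00176).

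For some genes the TAC-THZ1 libraries lay beyond every other library of the series. All 4 were above the other 12 for 135 genes (1.01%) and below them for 144 (1.08%). Of the 135, 120 were called for THZ1 in TAC and 73 for TAC-THZ1 against Sham-THZ1, and of the 144, 127 and 102 were. The mitochondrial ribosome held 16 of the genes above and the nuclear respiratory chain 8. The collagens held 8 of the genes below and the cell cycle list 3.

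Genes called lower differed from genes called higher in size. The median span on the genome was 36.8 kb for lower and 17.8 kb for higher genes, against 23.7 kb for all tested. From the shortest to the longest of 5 equal classes of genes by span, the share called lower went from 9.19% to 21.6% and the share called higher from 19.4% to 11.6%. The median log2 fold change went from 0.10 to -0.06 over these classes with THZ1 in TAC and from 0.03 to -0.04 with THZ1 in sham. For TAC-Veh against Sham-Veh, both without the drug, it went from 0.08 to -0.08. That contrast shares the TAC-Veh libraries with the contrast of THZ1 in TAC. The part of the drug in the gradient was not tested. The total length of exons had medians of 4406 and 3142 bases for lower and higher genes. Median GC content was 49.4% and 52.1%. From the lowest to the highest of 5 classes by GC, the median log2 fold change with THZ1 went from -0.01 to 0.07 in TAC and from -0.05 to 0.08 in sham. Genes are not independent replicates, so these are descriptions with no test.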

How the data were processed

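Ventricle RNA of 16 mouse libraries was sequenced as single-end reads from a stranded mRNA kit. Per the labels and methods, the authors aligned reads with TopHat2 (2.1.1) to mm9 and counted them per gene by strand with HTSeq. The deposited signal values are gene counts that the authors divided by DESeq2 size factors, and whole reads were recovered from 100% of them within 0.1. All columns were matched to samples.

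Values were analysed as log2(normalized count + 1) with limma (3.58.1) in R (4.3.3), with 1 coefficient for each of the 4 groups and Benjamini-Hochberg adjustment over the 13331 genes with at least 10 counts in at least 4 libraries. Calls used an adjusted p under 0.05, and a fold threshold of 0.89 where stated. No 2 libraries of a group agreed within counting noise (chi-square per degree of freedom 2.97 to 93.5). The fit was tried on simulated data in which all groups had the same dispersion. The TAC libraries varied more than the sham libraries, so that trial cannot show how the pooled fit does here. Alternatives covered the pseudocount, filter, scaling, DESeq2 (1.42.0) and edgeR (4.0.16) on recovered reads, a replicate block and leaving out each library. Those that leave out TAC-Veh replicates 1 and 2, TAC-THZ1 replicates 1 and 3, or genes opposite an abundant gene were chosen after the data were seen.

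The comparison and the gene lists were chosen with earlier results of these data known. Genes were named by rule: the 10 largest changes in each direction with a mean of at least 100 counts and no overlap, the 10 smallest adjusted p-values, the first 2 and the 3 strongest members of each list, and the leading genes in sham and of the interaction. Genes outside the rule are marked in the text. Some genes that the rule names are not reported here. Promoters, 250 bases before each listed start on GRCm38.p6, came from RefSeq and matched 78.3% of the genes tested. No test compared genes called lower or higher by motif, and the shares of promoters with a motif are descriptions. Intervals are not given, since errors are spreads between libraries.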

Additional observations from a re-analysis of the deposited data

Results flagged for a closer look

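In a group of 4 libraries, a value can stand far from the other 3 by chance, and Dixon's criterion flags about 1 in 20 groups in that way. Among 232 groups of 4 values of the named genes 13 were flagged, against 11.6 expected by chance. Normalized counts far from the rest of their group were 5.94 for Cyp1a1 in TAC-Veh replicate 3, 92832 for Xirp2 in TAC-Veh replicate 2, 36582 for Xirp2 in TAC-THZ1 replicate 4, 485 for Kcnd2 in TAC-THZ1 replicate 2, 22945 for Tuba4a in TAC-THZ1 replicate 3, 410.3 for Tuba1c in TAC-Veh replicate 1, 2146 for Esrra in TAC-THZ1 replicate 4, 7830.5 for Ndufs7 in TAC-THZ1 replicate 2, 524 for Nbn in TAC-Veh replicate 3, 3080.3 for Cdkn1a in TAC-Veh replicate 1, 710.1 for Tiparp in TAC-Veh replicate 1, 17047 for Rgs5 in TAC-Veh replicate 4 and 11849 for Rgs5 in TAC-THZ1 replicate 3. The causes were not tested.

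For 83 of the 116 named genes the TAC and sham hearts responded to THZ1 by unequal amounts in the interaction test of limma, at an adjusted p under 0.05. Over all genes tested the count was 1336 of 13331. Genes were named in large part for strong changes in TAC, which enter this difference. The share among named genes was raised by that choice. The values are the log2 fold change in TAC minus that in sham. The effect in TAC was the more negative by -3.75 for Col12a1, -3.20 for Comp, -3.38 for Gdf15, -3.33 for Fmod, -3.49 for Col8a2, -3.04 for Postn, -3.06 for Ltbp2, -2.88 for Dio2, -3.65 for Lox, -1.46 for Ace, -2.29 for Col8a1, -2.24 for Adamtsl2 and -1.64 for Uck2. More negative values in TAC were also found at -1.61 for Serpinf1, -1.95 for Col4a3, -2.42 for Mfap4, -1.98 for Col1a1, -2.01 for Col3a1, -2.29 for Loxl2, -3.06 for Thbs4, -2.85 for Cilp, -1.33 for Tgfb2, -2.49 for Timp1, -1.41 for Mmp2, -1.89 for Meox1 and -1.17 for Scx. Further differences below 0 were -1.61 for Rcan1, -1.19 for Xirp2, -1.44 for Fhl1, -0.65 for Tuba1c, -1.59 for Mki67, -1.47 for Top2a, -1.89 for Prc1, -1.67 for Tpx2, -3.04 for Egr2, -2.24 for Atf3, -2.43 for Nr4a3, -1.55 for Hspa1a and -0.72 for Hspb1. The remaining differences below 0 were -0.78 for Phlda3, -0.71 for Srxn1, -0.68 for Bhlhe40, -2.18 for Mfap5, -1.26 for Pi16, -1.27 for Tagln, -1.25 for Cx3cl1, -1.75 for Ptgs2 and -0.35 for Psmd8.

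The effect in TAC was the more positive by 5.34 for Cyp1a1, 2.68 for Lrrc4b, 2.37 for Penk, 2.30 for Inmt, 2.53 for Cngb3, 2.58 for Clcn1, 2.25 for Gpr22, 1.76 for Efnb3, 1.83 for Kcnv2, 1.78 for Tnip3, 1.95 for Col6a6 and 1.45 for Bmp7. More positive values in TAC were also found at 0.65 for Tnni3, 0.70 for Pln, 0.88 for Kcnip2, 1.47 for Kcnj3, 0.55 for Kcnj11, 1.18 for Tuba4a, 0.68 for Etfb, 0.70 for Eci1, 0.84 for Acaa2, 0.61 for Slc2a4, 1.54 for Pfkfb1 and 0.41 for Sdhc. Further differences above 0 were 0.47 for Ndufs7, 0.46 for Sdha, 0.62 for Mrps35, 1.12 for Rpl3l, 1.27 for Cenpf, 0.46 for Ccnh, 1.55 for Ahrr, 1.10 for Agtr1a, 0.93 for Adra1b, 1.19 for Hlf and 2.20 for Ccl11. Of the 83 differences, 26 were lost when 1 library was left out, and 15 of the 16 libraries lost at least 1 of them.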

How the results depend on the processing

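Counts of genes were read against those of the main limma fit, 1899 lower and 2019 higher with THZ1 in TAC, 483 and 246 of them past the fold threshold, 6 and 3 in sham, and 749 and 587 for the difference of effects. At an adjusted p under 0.01 the counts were 1035 and 1023 in TAC and 198 and 65 for the difference. With each pair of groups fitted alone they were 816 and 583 in TAC, 136 higher past the fold threshold, and 178 and 287 in sham. Array weights gave 1102 and 1310 in TAC, 151 higher past the fold threshold, 259 and 254 in sham, and 921 and 911 for the difference. A minimum mean of 50 counts gave 267 and 153 past the fold threshold, and DESeq2 on recovered reads 20 and 13 in sham. edgeR on recovered reads gave 2025 and 1956 in TAC and 6 and 4 in sham. The causes were not tested.

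Leaving out 1 library at a time gave 1318 to 2224 lower and 1365 to 2352 higher genes in TAC. Past the fold threshold the ranges were 355 to 590 and 176 to 334, in sham 2 to 9 and 1 to 6, and for the difference 444 to 1236 and 246 to 1243. The lowest TAC counts came without TAC-Veh replicate 2 and the highest without TAC-Veh replicate 3. Alternatives added after the data were seen changed some counts as well. Without TAC-Veh replicates 1 and 2 they were 1019 and 1152 in TAC, 252 and 88 past the fold threshold, 11 and 8 in sham, and 447 and 314 for the difference, with fewer libraries fitted. Without genes opposite an abundant gene, 0 genes were lower in sham by limma.

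Of 116 named genes, 82 kept the direction and the side of the threshold of their TAC change under all alternatives run. The sign turned for Cdk7 (-0.011 without TAC-THZ1 replicate 3, in a range of -0.011 to 0.067 over libraries left out 1 at a time), for Cdk12 (0.008 without TAC-Veh replicate 2, 0.048 without TAC-Veh replicate 4, 0.018 without TAC-THZ1 replicate 1 and 0.017 without TAC-THZ1 replicate 2, in a range of -0.086 to 0.048), for Rgs5 (0.099 without TAC-Veh replicate 4, in a range of -0.103 to 0.099), for Fos (0.30 without TAC-Veh replicates 1 and 2), and without TAC-THZ1 replicates 1 and 3 for Alas2 (-0.56) and Gbp2 (-0.14). None of these 6 genes was called. A fit of the 8 TAC libraries alone ended the calls of 20 named genes. Array weights ended the calls of Atp2a2, Tuba4a, Cenpf, Tiparp, Ahrr, Hlf, S100a8 and S100a9, at adjusted p from 0.0528 to 0.104 in limma. Myh6 and mt-Nd2 were called higher with robust variances (adjusted p = 0.0366 and 0.0324) and with DESeq2 (0.0269 and 0.00991), Myh6 also with a minimum mean of 50 counts (0.0488), and Gbp2 with DESeq2 (0.0306) and edgeR (0.0335).

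The groups share replicate numbers, and deviations of same-numbered TAC libraries had correlations of 0.045, -0.43, -0.24 and 0.080 over genes. Those of unlike-numbered TAC libraries lay between -0.12 and 0.31. The values showed no pairing by number but, with so few libraries per group, cannot exclude one. A fit with the replicate number as a block gave 1811 lower and 1936 higher genes in TAC.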

Other observations

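Other genes with large rises in TAC-THZ1 belonged to none of the lists. Inmt, an enzyme that methylates indoles, had 60.0, 16.4, 149 and 121 normalized counts in TAC-Veh and 609, 467, 184 and 260.3 in TAC-THZ1 (log2 fold change 2.37, SE 0.50, adjusted p = 0.00272). Cngb3, a subunit of cyclic nucleotide-gated channels, had 10.6, 18.6, 68.4 and 46.0 against 145, 238, 134 and 97.0 (log2 fold change 2.32, SE 0.41, adjusted p = 8.15e-04). Lrrc4b, an adhesion protein of synapses, had 41.1, 49.3, 83.2 and 64.7 against 377, 355, 571 and 241 (log2 fold change 2.66, SE 0.24, adjusted p = 1.33e-05). Efnb3, a ligand of Eph receptors, had 382, 182, 753 and 711 against 1344, 1926, 1989.6 and 1490.4 (log2 fold change 1.92, SE 0.31, adjusted p = 4.54e-04). No TAC-Veh value reached the TAC-THZ1 values for these 4 genes. Without TAC-Veh replicates 1 and 2 the changes were 1.34, 1.36, 2.31 and 1.19.

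Some markers of rarer cell types were below the filter on counts. Of 5 epicardial markers tested 1 was lower, of 4 Schwann cell and nerve markers 1 was higher, of 4 skeletal muscle markers 1 was higher, and of 3 atrial markers 1 was lower and 1 higher. Neither of the 2 adipocyte markers passed the test in limma, nor did either at an unadjusted p under 0.05.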
